A study of Homo sapiens with 6 samples.

Results

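The genes described here are 6 receptors through which myeloid cells sense chemoattractants and lipids: CCR2, CXCR2, FPR1, PTAFR, GPR84 and CD36. They were selected on measured values, because their transcripts stood apart between knockdown and control libraries of this study, and they are 6 of the 13002 genes in the deposited tables. Each was found by its symbol in the tables of both hairpins, also where it lay under 1 RPKM (the read count of a gene divided by its length and by the depth of the library) in the control. Because the same contrasts chose them, their levels and changes against the control and between the hairpins are given as a description without a p-value.

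The study measured RNA by sequencing in cells of the established human line OCI-AML2, derived from acute myeloid leukaemia, whose cell type is labelled "Engineered leukemic stem cell line" and whose tissue is labelled blood. The 3 groups were TAZ shRNA1, TAZ shRNA2 and a control hairpin, with 2 libraries each, lettered A and B. TAZ here is tafazzin (gene ID 6901), which works in mitochondria and exchanges the fatty acyl chains of cardiolipin. All 3 groups had received a lentivirus and puromycin at 2.0 µg/mL for 3 days, so the control shares the infection and the selection, and its hairpin is a scramble sequence per the labels, although its columns in the tables are named GFP. The cells are 1 line. Whether A and B came from separate cultures is not labelled, so a p-value below covers the spread between the libraries and that spread may be technical.

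Most chemoattractant receptors are G protein-coupled receptors that signal through Gi proteins to phospholipase C, phosphoinositide 3-kinase gamma and Rac, and so steer leukocytes up a gradient. CCR2 binds CCL2 and brings monocytes out of the bone marrow, CXCR2 binds CXCL8 and related chemokines and recruits neutrophils, and FPR1 binds the formylated peptides that bacteria and mitochondria release. PTAFR is the receptor of platelet-activating factor, an ether phospholipid. GPR84 responds to medium-chain fatty acids. CD36 belongs to another class, the scavenger receptors, and takes up oxidized lipoproteins and long-chain fatty acids.

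To show what lies before the start sites of 3 receptors with different courses, 250 bases upstream are printed for CCR2 and CXCR2, which were high with both hairpins, and for FPR1, which was above the control with TAZ shRNA2 and below it with TAZ shRNA1. The sequences are RefSeq's, on GRCh38.p14 and on the strand of the gene, while the submitters' notes name hg19 for the tables, so the coordinates belong to the sequences alone. Capitals mark AGGAAG or its reverse complement, the core bound by PU.1 and other ETS factors, and TTGCNNAA on either strand, a pattern bound by C/EBP factors. CCR2 (chr3:46353861-46354110, plus strand) has the C/EBP pattern and no AGGAAG. CXCR2 (chr2:218125778-218126027, plus strand) has 3 copies of AGGAAG, beginning 98, 39 and 24 bases before the start. FPR1 (chr19:51751879-51752128, minus strand) has 1 copy, 94 bases before the start.
CCR2: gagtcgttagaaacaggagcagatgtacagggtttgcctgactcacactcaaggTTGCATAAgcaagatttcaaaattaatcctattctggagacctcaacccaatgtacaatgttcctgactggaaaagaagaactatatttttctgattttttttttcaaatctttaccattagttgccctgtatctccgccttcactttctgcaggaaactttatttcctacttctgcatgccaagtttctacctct
CXCR2: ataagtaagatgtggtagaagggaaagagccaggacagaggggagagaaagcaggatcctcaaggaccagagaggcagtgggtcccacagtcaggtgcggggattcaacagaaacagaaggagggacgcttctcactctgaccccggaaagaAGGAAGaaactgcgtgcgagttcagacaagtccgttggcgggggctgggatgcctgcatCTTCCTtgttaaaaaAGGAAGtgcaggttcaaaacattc
FPR1: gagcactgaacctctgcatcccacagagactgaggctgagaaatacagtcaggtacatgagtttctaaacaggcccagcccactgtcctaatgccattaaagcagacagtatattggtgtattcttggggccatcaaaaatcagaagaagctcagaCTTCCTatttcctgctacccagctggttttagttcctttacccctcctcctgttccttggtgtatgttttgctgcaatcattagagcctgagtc
Of the 6 receptors, 5 had a promoter in the RefSeq table, with 11 start sites in all, and GPR84 had no entry. AGGAAG lay before 4 of the 11 starts, belonging to CXCR2, FPR1, PTAFR and CD36, against 28.7% of all 35116 starts in the table. TTGCNNAA lay before 1 of the 11, that of CCR2, against 9.05% of all starts. A match describes the letters and says nothing of binding.

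Read depth was similar across libraries, between 16832900 and 18735706 reads in the 12548 genes whose whole reads could be recovered. TAZ itself was at 4.018 and 4.099 RPKM with TAZ shRNA1 and at 1.47 and 2.13 RPKM with TAZ shRNA2, against 11.3 and 11.9 RPKM in the control libraries. The myeloid label was checked with 10 marker genes, all of which were listed, and their summed level was 5170 to 5750 RPKM with TAZ shRNA1 and 3973 to 4778 RPKM with TAZ shRNA2, against 1014 to 1193 RPKM in the control. Most of that sum was lysozyme, LYZ, at 4742 to 5236 RPKM with TAZ shRNA1 and 3494 to 4221 RPKM with TAZ shRNA2, against 676 to 786 RPKM in the control. SPI1 (PU.1) and CEBPA, which encode myeloid transcription factors, were listed at 117 to 145 RPKM and at 103 to 147 RPKM over the 6 libraries. Of 5 T cell markers 1 was listed, CD3D, at no more than 0.981 RPKM in any library. Of 5 B cell markers 4 were listed, with sums of 4.403 and 4.999 RPKM with TAZ shRNA1 and 1.31 and 1.60 RPKM with TAZ shRNA2, against 3.46 and 1.88 RPKM in the control. The B cell receptor gene CD79B made up most of the TAZ shRNA1 sums, at 3.91 and 4.27 RPKM with TAZ shRNA1 and 0.692 and 1.02 RPKM with TAZ shRNA2, against 2.21 and 1.29 RPKM in the control. Of 5 erythroid markers 1 was listed, EPOR, at 2.75 to 4.99 RPKM, and the 2 listed of 4 megakaryocyte markers summed to 1.55 to 2.02 RPKM with TAZ shRNA1 and 3.67 to 4.44 RPKM with TAZ shRNA2, against 4.82 to 6.16 RPKM in the control. Of 4 NK cell and 4 eosinophil and basophil markers, 1 and 2 were listed: NKG7 ran from 27.8 to 42.6 RPKM, and PRG2, an eosinophil granule protein, was at 238 and 255 RPKM with TAZ shRNA1 and 58.4 and 138 RPKM with TAZ shRNA2, against 67.3 and 117 RPKM in the control. EPX, the other listed eosinophil and basophil marker, averaged 0.265 RPKM with TAZ shRNA1 and 0.308 RPKM with TAZ shRNA2, against 0.312 RPKM in the control. MPO, a granule enzyme of early myeloid cells, was lower with both hairpins, at 5.16 and 4.63 RPKM with TAZ shRNA1 and 1.02 and 1.49 RPKM with TAZ shRNA2, against 11.2 and 10.1 RPKM in the control. The summed myeloid markers were higher with both hairpins, as 4 of the 6 receptors were. The part of these and of the other markers in the results was not tested. In bulk RNA, fewer cells that express a gene and less of its RNA per cell cannot be told apart.

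In the knockdown libraries, 4 receptors were above both control libraries with both hairpins (CCR2, CXCR2, PTAFR and CD36), GPR84 was below them with both, and FPR1 was below them with TAZ shRNA1 and above them with TAZ shRNA2. Levels are RPKM, which are per length and can be compared between genes. Changes are log2 fold changes on log2(RPKM + 0.5) with their standard error (SE) from limma's fit over all genes, and on this scale changes of genes near or under 1 RPKM are understated, so the ratio of mean RPKM is given beside them. The fit called 4 receptors as higher and 1 as lower with TAZ shRNA1 at an adjusted p under 0.05, where 9.99% and 8.58% of 10613 tested genes rose and fell. FPR1 was not tested in that comparison, since its mean of 0.498 RPKM over the 4 libraries was under the filter of 1 RPKM. With TAZ shRNA2 it called 5 as higher and 1 as lower, where 8.12% and 7.61% of 10659 tested genes rose and fell. Between the hairpins, TAZ shRNA2 against TAZ shRNA1, it called FPR1 and CD36 as higher and left the other 4 uncalled, where 4.78% and 6.1% of 10660 tested genes rose and fell. FPR1 passed the filter in the comparisons that hold TAZ shRNA2 only through its TAZ shRNA2 libraries. CD36 passed it against the control only through the knockdown libraries, since its control mean was 0.918 RPKM. The contrasts chose the receptors, so nothing is read from these counts.

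**Figure D1:**
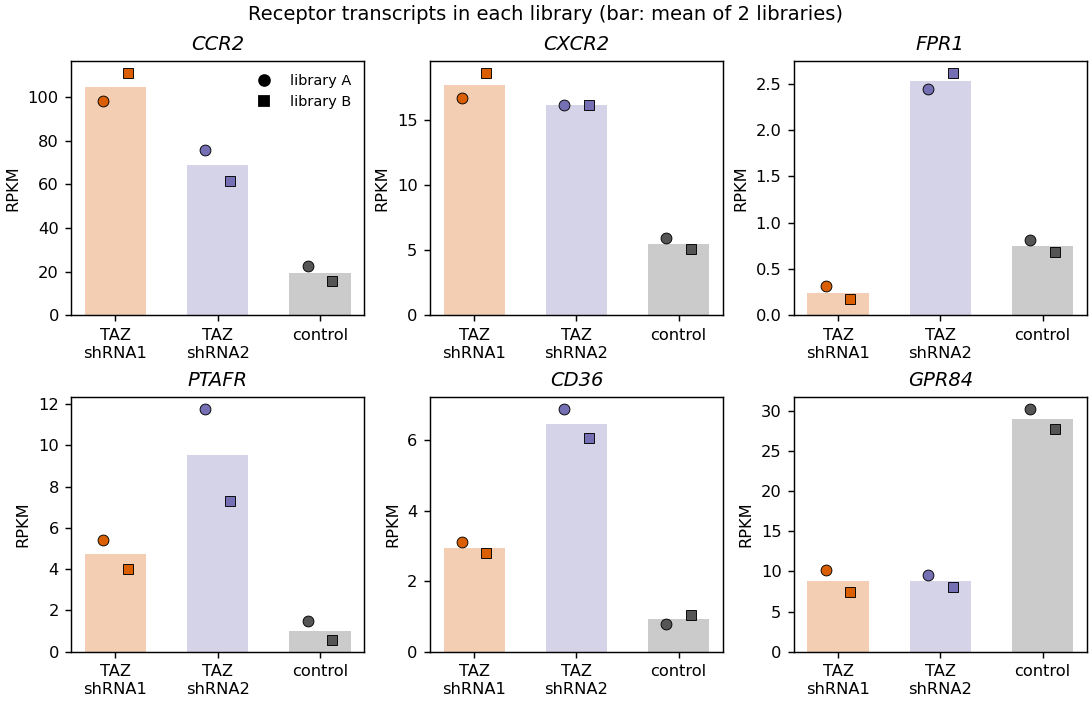
RPKM (vertical axes, from 0, on separate scales) of the 6 receptors in each library of TAZ shRNA1, TAZ shRNA2 and control. Points are libraries (circle A, square B) and bars are means of 2 libraries. CCR2 and CXCR2 are high with both hairpins, PTAFR and CD36 are highest with TAZ shRNA2, FPR1 is above control with TAZ shRNA2 and below it with TAZ shRNA1, and GPR84 is highest in the control.

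CCR2, the monocyte receptor for CCL2, was the most abundant of the 6 in every knockdown library. It had 98.3 and 110.9 RPKM with TAZ shRNA1 (5417 and 6252 reads) and 75.9 and 61.5 RPKM with TAZ shRNA2 (3941 and 3303 reads), against 22.7 and 15.8 RPKM in the control (1087 and 855 reads). The TAZ shRNA1 libraries were highest, the TAZ shRNA2 libraries came next, the control libraries were lowest, and no group overlapped another. Mean levels were 104.6 ± 8.88 RPKM with TAZ shRNA1 and 68.7 ± 10.2 RPKM with TAZ shRNA2, against 19.3 ± 4.92 RPKM in the control (SD, n = 2 each). The mean was 5.43-fold higher with TAZ shRNA1, a log2 fold change of 2.43 (SE 0.18), and 3.57-fold higher with TAZ shRNA2, a log2 fold change of 1.82 (SE 0.20). In rank, CCR2 had the 6th highest log2 fold change of all genes tested with TAZ shRNA1 and the 41st highest with TAZ shRNA2. TAZ shRNA2 minus TAZ shRNA1 was -0.61 (SE 0.19) on the log2 scale. With each library left out in turn, the change of CCR2 lay between 2.17 and 2.69 with TAZ shRNA1 and between 1.57 and 2.08 with TAZ shRNA2. Within its libraries CCR2 moved up the list of transcripts: it exceeded 94.2% and 95.2% of listed genes with TAZ shRNA1 and 91.9% and 91.2% with TAZ shRNA2, against 75.5% and 68.5% in the control.

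CXCR2, the neutrophil receptor for CXCL8, was higher than in the control by about the same amount with both hairpins. Its levels were 16.7 and 18.6 RPKM with TAZ shRNA1 (987 and 1124 reads) and 16.2 and 16.2 RPKM with TAZ shRNA2 (901 and 932 reads), against 5.92 and 5.07 RPKM in the control (304 and 295 reads). All 4 knockdown libraries lay above both control libraries, and the highest TAZ shRNA2 library lay just under the lower TAZ shRNA1 library. Means were 17.6 ± 1.33 RPKM with TAZ shRNA1 and 16.2 ± 0.0090 RPKM with TAZ shRNA2, against 5.50 ± 0.601 RPKM in the control (SD, n = 2 each). The TAZ shRNA2 libraries were thus nearly alike, which with 2 libraries is a weak measure of their spread. The mean was 3.21-fold higher with TAZ shRNA1 and 2.94-fold higher with TAZ shRNA2 than in the control. The log2 fold changes were 1.60 (SE 0.14) and 1.48 (SE 0.15), and TAZ shRNA2 minus TAZ shRNA1 was -0.12 (SE 0.13), within 1 standard error of 0. CXCR2 exceeded 69.0% and 71.8% of listed genes with TAZ shRNA1 and 68.7% and 69.5% with TAZ shRNA2, against 47.0% and 42.9% in the control. CXCR2 shares more sequence with other genes than the other receptors do: 7.31% of the 50-base stretches of its longest coding transcript occur elsewhere, mostly in CXCR1 and in the pseudogene CXCR2P1. How the authors' counting treated reads that fit both is not given in the sources used here, so part of the RPKM of CXCR2 is uncertain. For the other 5 receptors the share was 1.62% or less, and 0 for GPR84 and CD36.

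CCR2 and CXCR2 were set beside the other chemokine receptors, 11 of which were listed with them included. CCR2 ranked 2nd in both TAZ shRNA1 libraries and 1st in both TAZ shRNA2 libraries, against 3rd in both control libraries. It made up 29.7% and 32.1% of the summed RPKM of these 11 genes with TAZ shRNA1 and 35.9% and 34.3% with TAZ shRNA2, against 16.1% and 15.1% in the control. CXCR2 ranked 4th in all 6 libraries. The gene above CCR2 with TAZ shRNA1 was CXCR4, the receptor that holds cells in the marrow, at 140.2 and 141 RPKM with TAZ shRNA1 and 41.6 and 34.2 RPKM with TAZ shRNA2, against 72.9 and 55.7 RPKM in the control. CXCR4 rose with TAZ shRNA1 (log2 fold change 1.14, limma adjusted p = 0.0053) and fell with TAZ shRNA2 (-0.75, adjusted p = 0.0346), and the second call was lost without control A (adjusted p = 0.0948) or without TAZ shRNA2 B (0.119). CCR1 rose with TAZ shRNA1 and with TAZ shRNA2 (1.14, adjusted p = 0.0053, and 1.03, adjusted p = 0.0118). ACKR3, a decoy receptor that scavenges CXCL12, was at 2.72 and 1.26 RPKM with TAZ shRNA2, against 0.399 and 0.0940 RPKM in the control. ACKR3 passed the filter only through its TAZ shRNA2 libraries (1.70, adjusted p = 0.0191), and it was under the filter with TAZ shRNA1 and also, in the TAZ shRNA2 comparison, without TAZ shRNA2 A. In all, 3 of 4 tested chemokine receptors other than CCR2 and CXCR2 rose with TAZ shRNA1 and 1 did not pass, and 3 of 6, ACKR3 among them, rose and 1 fell with TAZ shRNA2. Of all tested genes, 9.99% rose with TAZ shRNA1, and 8.12% rose and 7.61% fell with TAZ shRNA2. The median log2 fold change was 1.14 over the 4 genes tested with TAZ shRNA1 and 0.64 over the 6 tested with TAZ shRNA2. The median of all tested genes was within 0.01 of 0. Like ACKR3, CCRL2 passed the filter only through its TAZ shRNA2 libraries (mean 1.25 RPKM, against 0.969 RPKM in the control). The 2 medians thus cover different genes, and nothing is read from the second.

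**Figure D2:**
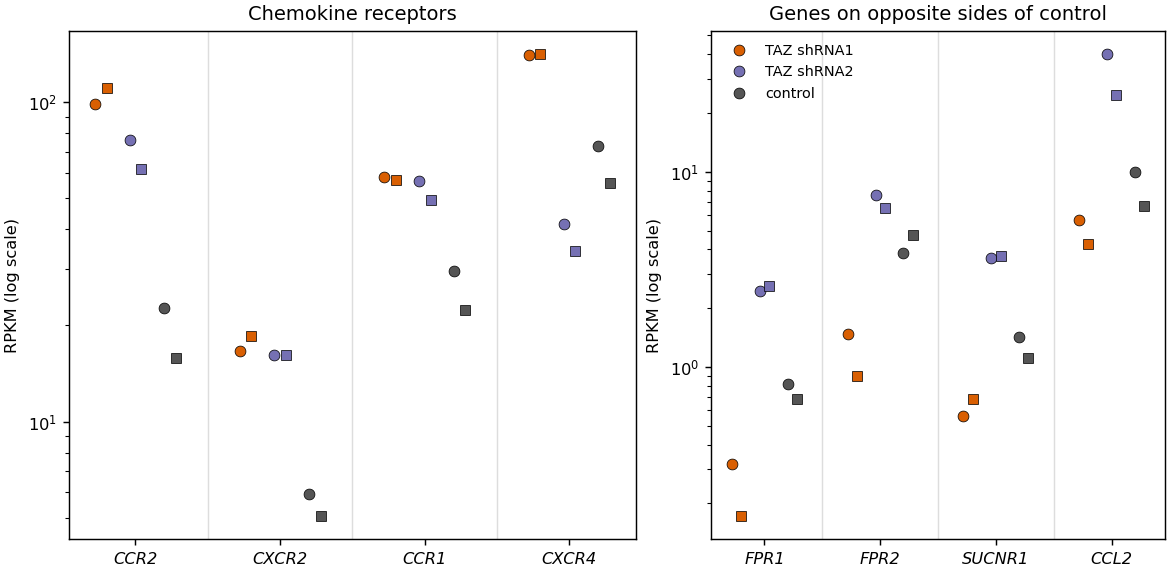
RPKM on log axes of 4 chemokine receptors (left) and of FPR1, FPR2, SUCNR1 and CCL2 (right) in each library, coloured by group, circle for A and square for B. CXCR4 and the 4 genes on the right have the TAZ shRNA1 and TAZ shRNA2 libraries on opposite sides of the control, while CCR2, CXCR2 and CCR1 are above the control with both hairpins.

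Of the ligands of CCR2 and CXCR2, 3 were tested. CCL2, the ligand of CCR2, had 5.65 and 4.25 RPKM with TAZ shRNA1 and 39.9 and 24.8 RPKM with TAZ shRNA2, against 9.95 and 6.67 RPKM in the control. It rose with TAZ shRNA2 (log2 fold change 1.89, limma adjusted p = 0.00586), and its change with TAZ shRNA1 was -0.68 (adjusted p = 0.0671). CXCL8, a ligand of CXCR2, had 89.2 and 102.4 RPKM with TAZ shRNA1 and 183.2 and 145.6 RPKM with TAZ shRNA2, against 429.6 and 226.6 RPKM in the control. It fell with TAZ shRNA1 (-1.70, adjusted p = 0.0093) and was -0.93 with TAZ shRNA2 (adjusted p = 0.0738). CCL2 and CCR2 were thus both above the control with TAZ shRNA2, while with TAZ shRNA1 the CCR2 libraries were above and the CCL2 libraries below it. Of the 3 tested ligands, 1 fell and 2 did not pass with TAZ shRNA1, and 1 rose and 2 did not pass with TAZ shRNA2. The shares of all tested genes were 8.58% falling with TAZ shRNA1 and 8.12% rising with TAZ shRNA2.

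FPR1, the formyl peptide receptor, was the only one of the 6 whose hairpins lay on opposite sides of the control. It stood at 0.318 and 0.173 RPKM with TAZ shRNA1 and 2.44 and 2.61 RPKM with TAZ shRNA2, against 0.815 and 0.684 RPKM in the control. These levels rest on few reads, 9 and 5 with TAZ shRNA1 and 65 and 72 with TAZ shRNA2, against 20 and 19 in the control. The TAZ shRNA2 libraries were highest, the control libraries came next, the TAZ shRNA1 libraries were lowest, and no group overlapped another. Means were 0.246 ± 0.103 RPKM with TAZ shRNA1 and 2.53 ± 0.124 RPKM with TAZ shRNA2, against 0.750 ± 0.0932 RPKM in the control (SD, n = 2 each). The mean with TAZ shRNA2 was 3.37-fold that of the control and 10.3-fold that with TAZ shRNA1, and the mean with TAZ shRNA1 was 3.05-fold lower than in the control. On the log2 scale the change was -0.75 (SE 0.15) with TAZ shRNA1 and 1.28 (SE 0.19) with TAZ shRNA2, and TAZ shRNA2 minus TAZ shRNA1 was 2.03 (SE 0.19). These sizes depend on the constant added before the logarithm: at 0.1 RPKM in place of 0.5 they were -1.33, 1.63 and 2.96, and from the recovered reads in limma-voom -1.56, 1.80 and 3.36. Every setting run kept both directions, but with no overlap between groups another constant or leaving out a library could not have turned them. The authors' deposited table gives FPR1 log2 fold changes of -1.60 with TAZ shRNA1 and 1.76 with TAZ shRNA2.

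FPR2, the neighbouring formyl peptide receptor, had the same order of groups. It was at 1.47 and 0.895 RPKM with TAZ shRNA1 and 7.62 and 6.56 RPKM with TAZ shRNA2, against 3.84 and 4.76 RPKM in the control. FPR2 fell with TAZ shRNA1 (log2 fold change -1.53, limma adjusted p = 0.00623) and rose with TAZ shRNA2 (0.67, adjusted p = 0.0395). The second call was lost without control A (adjusted p = 0.092), TAZ shRNA2 A (0.165) or TAZ shRNA2 B (0.0821) and with no filter on low values (0.0575). TAZ shRNA2 minus TAZ shRNA1 was 2.19 (adjusted p = 0.00102). Among the 10660 genes that averaged 1 RPKM or more in the 6 libraries, the profiles nearest to FPR1 were those of TVP23C, SUCNR1 and SRD5A1, at root mean square distances of 0.142, 0.148 and 0.172 on the log2 scale after each profile was centred on its control mean. FPR2 lay at 0.593.

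PTAFR, the receptor of platelet-activating factor, was higher with TAZ shRNA2 than with TAZ shRNA1 and lowest in the control. Its levels were 5.39 and 4.03 RPKM with TAZ shRNA1 (480 and 367 reads) and 11.8 and 7.28 RPKM with TAZ shRNA2 (986 and 632 reads), against 1.49 and 0.537 RPKM in the control (115 and 47 reads). No group overlapped another, but the control libraries were less alike than those of any group for any of the 6 receptors, with A 2.77 times B. Means were 4.71 ± 0.964 RPKM with TAZ shRNA1 and 9.52 ± 3.16 RPKM with TAZ shRNA2, against 1.01 ± 0.673 RPKM in the control (SD, n = 2 each). The mean was 4.65-fold higher with TAZ shRNA1 and 9.40-fold higher with TAZ shRNA2 than in the control. The log2 fold change was 1.85 (SE 0.30) with TAZ shRNA1 and lay between 1.38 without control B and 2.32 without control A. It was 2.77 (SE 0.33) with TAZ shRNA2, the 4th highest of all tested genes, and lay between 2.30 without control B and 3.24 without control A. TAZ shRNA2 minus TAZ shRNA1 was 0.92 (SE 0.32). The size of these changes depends on the added constant. At 0.1 RPKM they were 2.24 with TAZ shRNA1 and 3.22 with TAZ shRNA2, and at 1 RPKM 1.54 and 2.39. From the recovered reads in limma-voom they were 2.42 and 3.45. The authors' deposited table gives PTAFR log2 fold changes of 2.30 with TAZ shRNA1 and 3.30 with TAZ shRNA2, larger than those at 0.5 RPKM.

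PTAFR stood higher among all transcripts with either hairpin than in the control: it exceeded 44.2% and 37.9% of listed genes with TAZ shRNA1 and 61.3% and 50.1% with TAZ shRNA2, against 23.1% and 13.1% in the control. FPR1 stayed near the low end, above 9.39% and 5.01% of listed genes with TAZ shRNA1 and 30.1% and 30.0% with TAZ shRNA2, against 16.2% and 15.3% in the control. PTAFR and FPR1 were ranked within 25 listed receptors for formyl peptides, complement fragments and lipid mediators. PTAFR ranked 7th and 9th with TAZ shRNA1 and 3rd and 6th with TAZ shRNA2, against 17th and 20th in the control. FPR1 ranked 22nd in both TAZ shRNA1 libraries and 14th and 13th with TAZ shRNA2, against 21st and 19th in the control. Of the other receptors of this list, 2 of 17 tested rose and 2 fell with TAZ shRNA1, and 3 of 18 rose and 15 did not pass with TAZ shRNA2, with medians of 0.13 and -0.03. The shares of all tested genes were 9.99% rising and 8.58% falling with TAZ shRNA1 and 8.12% rising with TAZ shRNA2. LPAR6, a lysophosphatidic acid receptor, rose with both (0.84, limma adjusted p = 0.0137, and 1.63, adjusted p = 0.00271), the first call being lost without TAZ shRNA1 A (adjusted p = 0.053) or B (0.0812). GPR183, which senses oxysterols, rose with TAZ shRNA2 (2.38, adjusted p = 0.00473), and PTGER2, a prostaglandin E2 receptor, rose with TAZ shRNA1 (1.12, adjusted p = 0.00368). Of the enzymes that make and break down platelet-activating factor, 1 of 14 rose and 1 fell with TAZ shRNA1 and 2 of 14 rose and 2 fell with TAZ shRNA2, with medians of 0.03 and 0.04. Of all tested genes, 9.99% rose and 8.58% fell with TAZ shRNA1 and 8.12% rose and 7.61% fell with TAZ shRNA2. Counts of 1 or 2 genes of 14 are too few to set against these shares.

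CD36, the scavenger receptor for oxidized lipoproteins and fatty acids, followed the order of PTAFR. It had 3.11 and 2.80 RPKM with TAZ shRNA1 (303 and 279 reads) and 6.88 and 6.06 RPKM with TAZ shRNA2 (632 and 576 reads), against 0.792 and 1.04 RPKM in the control (67 and 100 reads). The TAZ shRNA2 libraries were highest and the control libraries lowest, with no overlap between groups and a spread within each group of at most 1.32 times. Means were 2.95 ± 0.220 RPKM with TAZ shRNA1 and 6.47 ± 0.575 RPKM with TAZ shRNA2, against 0.918 ± 0.178 RPKM in the control (SD, n = 2 each). The mean was 3.22-fold higher with TAZ shRNA1 and 7.05-fold higher with TAZ shRNA2 than in the control. The log2 fold changes were 1.29 (SE 0.17) and 2.30 (SE 0.18), the 98th and the 14th highest of all tested genes, and TAZ shRNA2 minus TAZ shRNA1 was 1.01 (SE 0.16). At a constant of 0.1 RPKM the changes of CD36 were 1.59 with TAZ shRNA1 and 2.70 with TAZ shRNA2, so its size also depends on that constant. The authors' deposited table gives CD36 log2 fold changes of 1.67 with TAZ shRNA1 and 2.81 with TAZ shRNA2. CD36 exceeded 33.8% and 31.7% of listed genes with TAZ shRNA1 and 49.3% and 45.8% with TAZ shRNA2, against 15.9% and 19.2% in the control.

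Among 15 listed scavenger and lipoprotein receptors, CD36 ranked 7th in both TAZ shRNA1 libraries and 5th and 6th with TAZ shRNA2, against 7th in both control libraries. It held at most 2.97% of their summed RPKM. CD68, a lysosomal scavenger receptor of macrophages, rose with both hairpins (1.34, limma adjusted p = 0.013, and 2.03, adjusted p = 0.00436). In all, 2 of 6 tested rose and 4 did not pass with TAZ shRNA1, and 1 of 6 rose and 1 fell with TAZ shRNA2, with medians of 0.46 and -0.14, where 9.99% of all tested genes rose with TAZ shRNA1 and 8.12% rose and 7.61% fell with TAZ shRNA2. PPARG, the fatty acid-activated nuclear receptor known to switch on CD36, was at 1.52 and 1.65 RPKM with TAZ shRNA1 and 1.64 and 1.40 RPKM with TAZ shRNA2, against 3.61 and 2.70 RPKM in the control. PPARG fell with both (-0.80, adjusted p = 0.0252, and -0.85, adjusted p = 0.0318), and these calls were lost without TAZ shRNA1 A (0.116) or B (0.113), and without control A (0.087) or TAZ shRNA2 B (0.115). Of 17 tested genes of PPAR and LXR lipid handling, 3 rose and 1 fell with TAZ shRNA1 and 3 fell and 14 did not pass with TAZ shRNA2, among the 3 LPL, the lipoprotein lipase (-1.23, adjusted p = 0.00405, with TAZ shRNA2). The shares of all tested genes were 9.99% rising and 8.58% falling with TAZ shRNA1 and 7.61% falling with TAZ shRNA2.

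GPR84, the receptor for medium-chain fatty acids, was the receptor that was lower with both hairpins. It stood at 10.2 and 7.47 RPKM with TAZ shRNA1 (318 and 238 reads) and 9.51 and 8.08 RPKM with TAZ shRNA2 (279 and 245 reads), against 30.3 and 27.8 RPKM in the control (817 and 849 reads). Both control libraries lay far above all 4 knockdown libraries, and the TAZ shRNA1 and TAZ shRNA2 libraries overlapped. Means were 8.85 ± 1.94 RPKM with TAZ shRNA1 and 8.80 ± 1.01 RPKM with TAZ shRNA2, against 29.01 ± 1.78 RPKM in the control (SD, n = 2 each). The mean was 3.28-fold lower with TAZ shRNA1 and 3.30-fold lower with TAZ shRNA2. The log2 fold change was -1.67 with either hairpin (SE 0.16 with TAZ shRNA1 and 0.15 with TAZ shRNA2), the 35th and the 41st lowest of all tested genes. TAZ shRNA2 minus TAZ shRNA1 was 0.0036 (SE 0.16). The change of GPR84 against the control lay between -1.89 and -1.46 with TAZ shRNA1 and between -1.78 and -1.56 with TAZ shRNA2 with each library left out in turn. The authors' deposited table gives GPR84 log2 fold changes of -1.73 with TAZ shRNA1 and -1.72 with TAZ shRNA2. GPR84 exceeded 58.0% and 50.7% of listed genes with TAZ shRNA1 and 56.6% and 52.7% with TAZ shRNA2, against 80.6% and 79.7% in the control.

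In the control, GPR84 was the most abundant of 12 listed receptors for fatty acids and other metabolites. It made up 19.2% and 15.4% of their summed RPKM with TAZ shRNA1 and 19.5% and 17.5% with TAZ shRNA2, against 47.3% and 50.4% in the control. Its rank was 3rd in both TAZ shRNA1 libraries and 3rd and 2nd with TAZ shRNA2. P2RY2, a receptor of extracellular ATP and UTP, ranked 1st in all 4 knockdown libraries and rose with TAZ shRNA1 (1.17, limma adjusted p = 0.00238) and with TAZ shRNA2 (0.80, adjusted p = 0.0155), the second call being lost without TAZ shRNA2 B (adjusted p = 0.0854). SUCNR1, the succinate receptor and the second nearest profile to FPR1, had 0.558 and 0.689 RPKM with TAZ shRNA1 and 3.62 and 3.71 RPKM with TAZ shRNA2, against 1.42 and 1.11 RPKM in the control. SUCNR1 rose with TAZ shRNA2 (1.24, adjusted p = 0.00767), was under the filter with TAZ shRNA1, and differed between the hairpins by 1.89 (adjusted p = 0.00106). In the fit of all 6 libraries, which gave that difference, it passed the filter only through its TAZ shRNA2 libraries. Of 4 tested receptors other than GPR84, 1 rose and 3 did not pass with TAZ shRNA1, and 2 rose and 2 did not pass with TAZ shRNA2, where 9.99% and 8.12% of all tested genes rose.

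**Figure D3:**
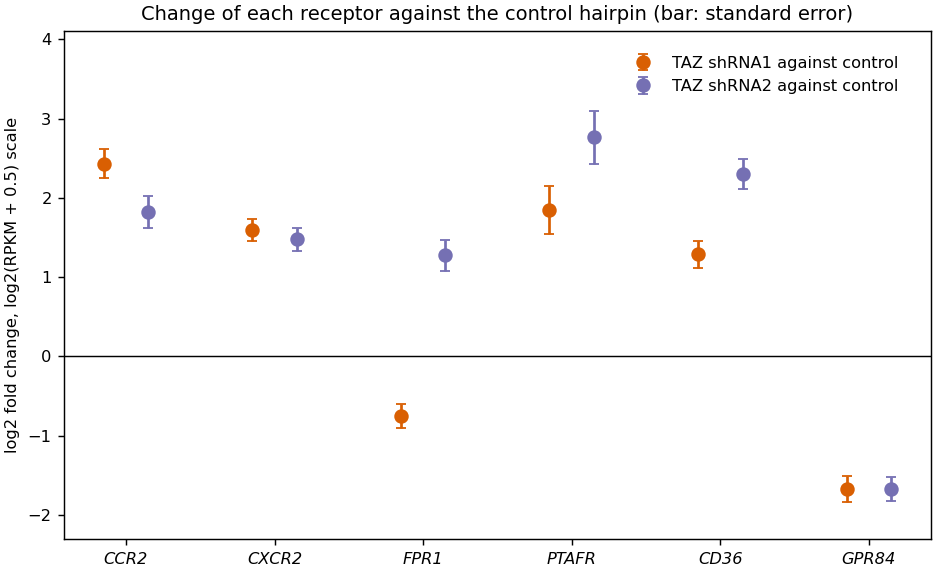
Log2 fold change against the control, on the log2(RPKM + 0.5) scale, of each receptor with TAZ shRNA1 and with TAZ shRNA2. Points are estimates from 2 libraries a group and bars are standard errors. GPR84 lies at -1.67 with both hairpins and FPR1 lies at -0.75 with TAZ shRNA1 and 1.28 with TAZ shRNA2, while the other 4 receptors lie above 0 with both.

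The 6 receptors thus differed in course. CCR2 was highest with TAZ shRNA1, and CXCR2 was about equally high with both hairpins. PTAFR and CD36 were above the control with both hairpins and highest with TAZ shRNA2. FPR1 was highest with TAZ shRNA2 but below the control with TAZ shRNA1, and GPR84 was low with both. Of pairs among the 6, the closest profiles over the 6 libraries were CXCR2 and CD36 (0.533), CCR2 and CXCR2 (0.536) and PTAFR and CD36 (0.566). These are root mean square log2 distances after centring on the control mean. The first 2 are nearly equal, and their order is not settled, since the change of CD36 depends on the added constant. At 0.1 RPKM the changes with TAZ shRNA2 were 2.70 for CD36, 1.54 for CXCR2 and 1.84 for CCR2. With TAZ shRNA1 they were 1.59, 1.67 and 2.46. The most distant pair was PTAFR and GPR84 (3.28). The genes nearest to CCR2 were FGL2 (0.160), TFEC (0.253) and DEFB1 (0.280). Those nearest to CXCR2 were ATRN (0.114), MVP (0.143) and IGSF6 (0.148). The nearest to PTAFR lay further off: GPNMB (0.383), TLR8 (0.387) and ID2 (0.443). CD36 was nearest to PLXNC1 (0.184), HIST1H2BK (0.234) and KAL1 (0.257), and GPR84 to SPRY1 (0.130), KRT81 (0.150) and RP9P (0.181). These distances describe 6 libraries and were not tested.

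The genes through which these receptors signal, stop signalling and move cells were taken as 3 further lists, to be read against the shares of all tested genes, of which 9.99% rose and 8.58% fell with TAZ shRNA1 and 8.12% rose and 7.61% fell with TAZ shRNA2. Of 31 tested G protein and effector genes, 6 rose and 1 fell with TAZ shRNA1, and 1 rose and 1 fell with TAZ shRNA2, with medians of 0.12 in both. The single gene that rose with TAZ shRNA2 is a share under that of all tested genes. Of 10 tested genes of receptor desensitization, 2 rose and 3 fell with TAZ shRNA1, and 1 rose and 2 fell with TAZ shRNA2. ARRB2, the arrestin that uncouples activated chemokine receptors, fell with both (-0.45, limma adjusted p = 0.0474, and -0.65, adjusted p = 0.0289), calls lost without TAZ shRNA1 A (0.16) or B (0.352) and without control A (0.0926) or TAZ shRNA2 B (0.101). RGS18, which shortens G protein signals, rose with both (1.14, adjusted p = 0.00928, and 1.36, adjusted p = 0.0107). Of 13 tested adhesion and migration genes, 5 rose and 2 fell with TAZ shRNA1 and 5 rose and 1 fell with TAZ shRNA2. PECAM1 (1.27, adjusted p = 0.0053, and 1.25, adjusted p = 0.00994) and TLN1, talin (0.88, adjusted p = 0.0053, and 1.13, adjusted p = 0.00637), rose with both, and ITGB2, the beta chain of the leukocyte integrins, rose with TAZ shRNA2 (1.30, adjusted p = 0.00586). Over all 10 lists, 25 of 119 tested genes rose and 11 fell with TAZ shRNA1, or 21.0% and 9.24%, where 9.99% and 8.58% of all tested genes did. With TAZ shRNA2, 19 of 122 rose and 11 fell, or 15.6% and 9.02%, where 8.12% and 7.61% of all tested genes did. The shares that fell were thus close to those of all tested genes. The shares that rose were higher, but the lists were chosen with earlier results of these data known, so nothing is read from that. Leaving out 1 library kept between 14 and 36 of the 36 calls with TAZ shRNA1 and between 17 and 27 of the 30 with TAZ shRNA2, where 1 of the 30 could not be tested without TAZ shRNA2 A.

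**Figure D4:**
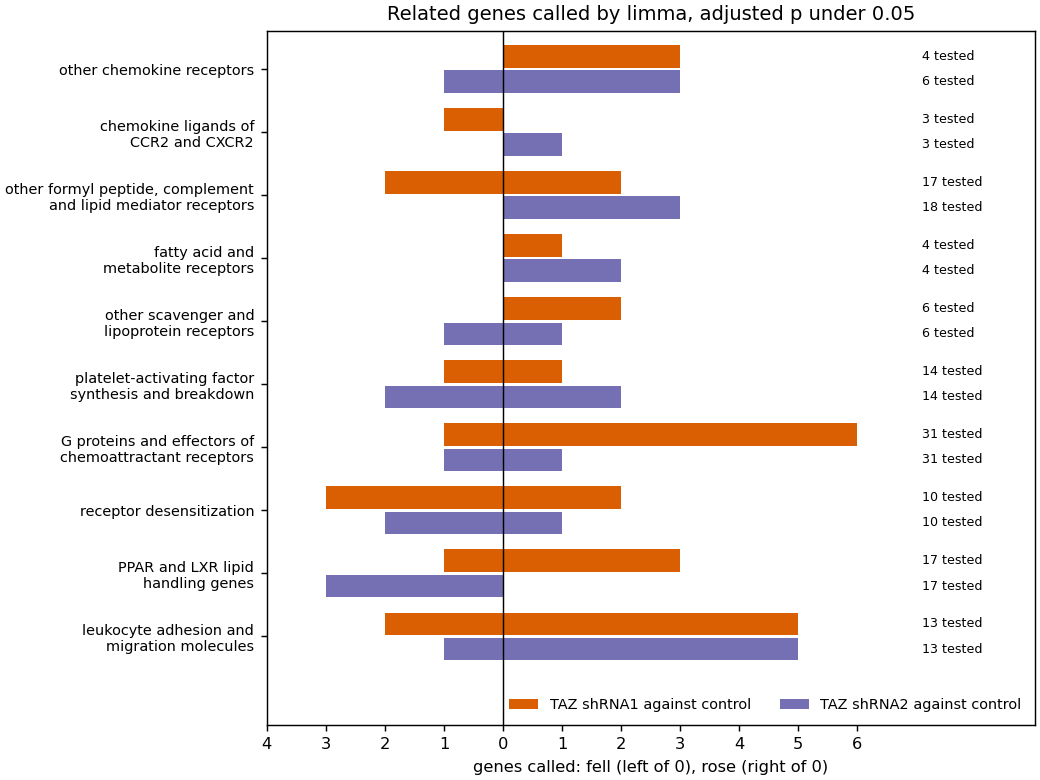
Number of genes called by limma in each of 10 lists related to the receptors, with TAZ shRNA1 and TAZ shRNA2 against the control. Bars to the right of 0 are genes that rose, bars to the left are genes that fell, and the number tested stands at the right. The G protein and effector list has 6 genes that rose with TAZ shRNA1 and 1 with TAZ shRNA2, and the PPAR and LXR list has 3 that rose with TAZ shRNA1 and 3 that fell with TAZ shRNA2.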

How the data were processed

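The submitters' processing notes name hg19 as build and, as tools without a role, TopHat2 2.0.11, Trim Galore 0.4.0, DESeq 1.18.0, HTSeq 0.6.1p2 and edgeR 3.8.6. The authors deposited 1 table per hairpin with the RPKM of its 4 libraries, plus their own log2 fold change, average log2 CPM, likelihood-ratio score, p-value and adjusted p-value, per the file headers. No source used here gives the strand setting or the authors' filter, so reads of a gene and of an antisense partner cannot be told apart, although GENCODE 29 has no gene overlapping the exons of the 6 receptors. The control columns were identical in both tables. After 21 date-like symbols were renamed by gene ID and 2 exact repeats dropped, 13002 genes remained. Whole reads were recovered from the steps of the RPKM values for 12548 genes (96.5%, within 0.02 reads), including all 6 receptors.

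Tests were run in limma 3.58.1 under R 4.3.3, two-sided, on log2(RPKM + 0.5) with a trended prior variance. Genes that averaged under 1 RPKM in a comparison were left out, and p-values were adjusted by Benjamini-Hochberg over all tested genes, with a threshold of 0.05. Each hairpin was fitted against the control in its own 4 libraries, and the hairpins against each other in 1 fit of all 6. The script was tested on simulated data. Some genes of the lists are not reported here. Every adjusted p is limma's. The receptors and the 10 related lists were chosen with earlier results of these data known. Named genes are the receptors, TAZ, and, drawn from each list, genes called with both hairpins and up to 4 with the smallest adjusted p. For each receptor the 3 nearest profiles are named. Alternatives changed the constant, the filter, the normalization, the variance prior, the libraries, the replicate block and the tool (limma-voom on recovered reads). Shared sequence was counted as 50-base stretches of GENCODE 29 transcripts.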

Additional observations from a re-analysis of the deposited data

Results flagged for a closer look

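The hairpins differed for some of these genes, here as log2(TAZ shRNA2) minus log2(TAZ shRNA1) in the fit of all 6 libraries. For FPR1 the difference was 2.03 and for CD36 1.01; both were chosen from these contrasts and carry no test. FPR1 had its TAZ shRNA2 libraries above and its TAZ shRNA1 libraries below the control.

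Related genes were singled out because the difference itself passed limma at an adjusted p under 0.05. In this contrast 11 of 121 tested related genes rose and 17 fell, or 9.09% and 14.05%. The shares of all tested genes were 4.78% and 6.1%. The lists were chosen with earlier results of these data known, so nothing is read from this gap. On opposite sides of the control stood CCL2 (2.56), FPR2 (2.19), SUCNR1 (1.89), CXCR4 (-1.88), PRKCB (-1.27), SCARB2 (-1.24), FERMT3 (1.175) and GNB4 (-0.93). Of these, SUCNR1 passed the filter only through its TAZ shRNA2 libraries. On 1 side of the control or overlapping it, and higher with TAZ shRNA2 than with TAZ shRNA1, were RGS1 (2.00), GPR183 (1.55), ITGB2 (1.42), LPAR6 (0.78) and LPCAT3 (0.77). Lower with TAZ shRNA2 than with TAZ shRNA1 were LPL (-1.12), PTGER2 (-0.92), ITGA4 (-0.86), CD44 (-0.82), SELPLG (-0.76), CPT1A (-0.61), SCARB1 (-0.61) and ADRBK2 (-0.60). Of the 28 related genes called between the hairpins, 11 remained called without TAZ shRNA1 A, 10 without TAZ shRNA1 B, 14 without TAZ shRNA2 A and 16 without TAZ shRNA2 B. Without TAZ shRNA1 A the calls lost included PTGER2, LPAR6, GPR183, SCARB1, CPT1A, LPCAT3, RGS1, CD44, SELPLG and ADRBK2, with adjusted p from 0.0595 for PTGER2 to 0.216 for SCARB1. Without TAZ shRNA1 B they included GNB4 (adjusted p = 0.0735) and ITGA4 (0.108).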

How the results depend on the processing

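All 156 values of the 6 receptors against the control kept their sign under every alternative run. Most of these settings could not have turned a sign. The filter, the variance prior, the replicate block and the fit of all 6 libraries leave the fold change itself unchanged. No receptor's libraries overlapped the control, so another constant or leaving out a library could not turn it either. Only quantile normalization and limma-voom could have done so. The number of genes called was 1971 with TAZ shRNA1, 1676 with TAZ shRNA2 and 1160 between the hairpins. With the replicate block it was 3780, 4170 and 2396, and all related genes of the lists that had been called stayed called. Libraries of 1 letter deviated together (r = 0.26, 0.423 and 0.367 over 10660 genes), but the labels do not say that a letter marks a shared culture or day. With all 6 libraries in 1 fit, TAZ shRNA2 gave 2597. Leaving out 1 library gave 461 to 4397 with TAZ shRNA1, 823 to 2010 with TAZ shRNA2 and 155 to 1622 between the hairpins. The lowest counts came without TAZ shRNA1 B (461), TAZ shRNA2 B (823) and TAZ shRNA1 B (155); the cause was not tested. C3AR1, uncalled with TAZ shRNA1, lay between -0.54 without control B (limma adjusted p = 0.00918) and 0.79 without control A. Where 1 library of a group was left, it was assumed to vary like the other groups. FPR1 rests on 5 to 72 reads.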
